A study of Mus musculus with 8 samples.

Results

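The known direct targets of lithium and the inositol enzymes around them were followed in cultured mouse optic nerve, on 4 arrays of lithium-treated nerves and 4 arrays of control nerves. The genes were the GSK3 kinases Gsk3a and Gsk3b, the lithium-sensitive phosphatases Impa1, Inpp1 and Bpnt1, the inositol transporter Slc5a3 and the phosphatidylinositol synthase Cdipt. They were chosen by symbol, as the probe sets annotated to 1 listed gene only, out of a list of 10 genes. Of these, 7 genes with 19 probe sets were found among the 18193 genes and 45037 probe sets tested, and Impa2, Isyna1 and Itpr1 were not analysed here. Each gene is represented by a main probe set, the one with the highest mean log2 signal over the 8 arrays, and its other probe sets are given beside it.

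Lithium-treated nerves were kept for 3 days as organotypic cultures in medium with 20 mM lithium chloride, and control nerves in the same way with saline in its place. The study states that the outer layer of the nerve restricts entry, and that this dose was meant to give a lower, therapeutic concentration inside it. Both groups came from mice aged 35 to 45 days, of the C57BL/6 strain in the sample labels. The study itself gives the C57/BL10 strain for the arrays, and used a line in which Gfap drives the reporter EGFP for microscopy. Nerves were cultured with the retina attached and cleaned of the arachnoid membrane, and the labels give 6 pooled nerves for each sample. The methods give fewer nerves for the arrays than 4 such pools in each group would need. Whether the 4 samples of each group were separate animals or cultures is not stated, and a p-value here refers to the spread from sample to sample, possibly a technical one. Values are MAS5 signals, linear intensities that the authors scaled to a common mean on each array, and differences are lithium minus control on the log2 scale from limma, with Benjamini-Hochberg adjustment over all 45037 probe sets. A probe set's level depends on its own probes, so that levels were not compared between probe sets.

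Lithium is a small cation that competes with magnesium in a few enzymes. It inhibits GSK3, a kinase that is active at rest and marks β-catenin, glycogen synthase and many other proteins. It also inhibits a family of magnesium-dependent phosphatases, among them the inositol monophosphatase that releases free inositol. The inositol that cells recycle, make or import feeds the phosphatidylinositol cycle and thereby IP3 and calcium signals. These actions are on proteins, whereas the arrays measured RNA only.

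None of the 7 genes passed an adjusted p of 0.05 in lithium with its main probe set, and none of the 19 probe sets did (limma, lowest adjusted p = 0.293 and adjusted p = 0.122). Over all genes 3.23% passed with the main probe set, and 2.33% of all probe sets did. Without adjustment, 0 of the 7 main probe sets and 4 of the 19 probe sets lay under a p of 0.05, against 22.0% of all genes and 18.0% of all probe sets. In 0 of the 7 main probe sets were the lithium and control arrays without overlap, against 15.4% of all genes. The median log2 fold change of the 7 genes was 0.20, against -0.0028 over all genes, with 5 genes higher and 2 lower in their mean. For all 7 main probe sets the 95% interval excluded a 2-fold change in either direction, as it did for 11002 of all 18193 genes. Of the 19 probe sets it did so for 14, against 24372 of all 45037 probe sets. Of the 6 probe sets of Gsk3b it did so for only 3.

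**Figure D1:**
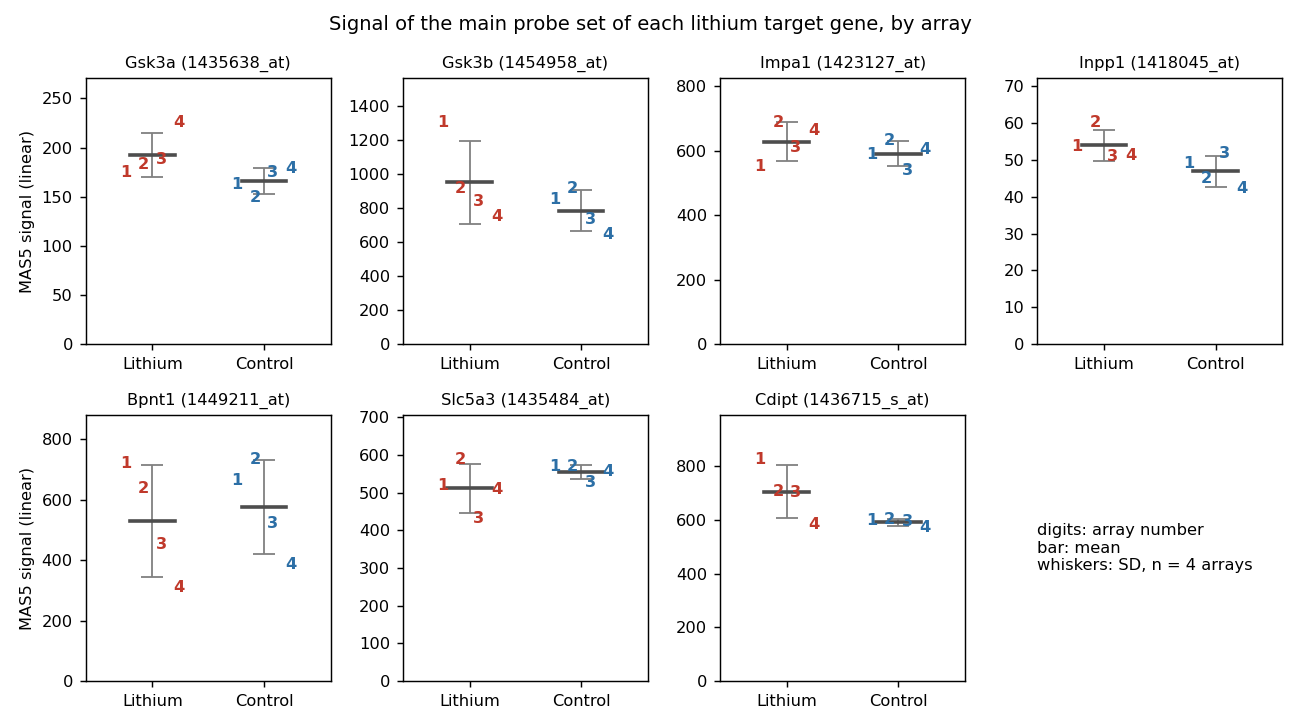
MAS5 signal (linear, from 0) of the main probe set of each of the 7 genes on lithium and control arrays, with the array number as the symbol, a bar at the mean and whiskers of 1 SD (n = 4 each). In every panel the lithium and control values overlap, and Bpnt1 has the widest spread relative to its mean within both groups, with arrays 3 and 4 at the bottom of each.

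Gsk3a encodes the α isoform of the kinase and had 1 probe set, 1435638_at. Its signal was 175, 183, 188 and 225 in lithium arrays 1 to 4, against 162, 149, 174 and 178 in control arrays 1 to 4. The lithium array was the higher of each same-numbered pair, but lithium array 1 lay below control array 4. The means were 193 ± 22.5 in lithium and 166 ± 13.3 in control (SD, n = 4 each), a log2 fold change of 0.21 (standard error 0.10, 95% interval -0.032 to 0.45, adjusted p = 0.349 from limma). The interval thus allowed a level between 0.978 and 1.37 times that of control. With a term for arrays 1 and 2 against 3 and 4 the interval lay above 0, at 0.032 to 0.39 (adjusted p = 0.157 from limma). With array number as a blocking factor it was 0.0092 to 0.41 (adjusted p = 0.222 from limma).

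Gsk3b, the β isoform, had 6 probe sets. Its main probe set, 1454958_at, gave a signal of 1301, 914, 841 and 748 in lithium arrays 1 to 4, against 851, 914, 732 and 645 in control arrays 1 to 4. Lithium array 1 was the highest, lithium array 2 was level with the highest control array, and lithium arrays 3 and 4 lay within the control range. The log2 fold change was 0.26 (standard error 0.20, 95% interval -0.21 to 0.72, adjusted p = 0.580 from limma).

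The other 5 Gsk3b probe sets also had higher means in lithium, without passing the test. With 1437001_at the signal was 465, 614, 563 and 510.3 in lithium and 493, 584, 441 and 372 in control, and with 1434439_at it was 327, 209, 274 and 265 in lithium and 146, 225, 212 and 161 in control. With 1451020_at it was 222, 186, 137 and 99.5 in lithium and 136, 131, 94.3 and 89.6 in control. In each of these 3 probe sets the groups overlapped. The log2 fold changes were 0.20 (adjusted p = 0.597), 0.54 (adjusted p = 0.206) and 0.47 (adjusted p = 0.451).

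The remaining probe sets of Gsk3b were dim. The signal of 1439931_at was 23.1, 55.5, 52.7 and 66.3 in lithium and 11.9, 20.2, 36.6 and 28.9 in control, a log2 fold change of 1.03 with an interval that reached below 0 (-0.049 to 2.11, adjusted p = 0.301 from limma). The signal of 1439949_at was 6.14, 7.09, 8.92 and 10.4 in lithium and 4.23, 3.32, 8.24 and 5.74 in control (log2 fold change 0.65, adjusted p = 0.340). With this probe set, 2 control arrays lay below the highest signal of the poly-A control probe sets on the same array, which was 2.13 to 5.64 over the 8 arrays and served as a mark of background. The 6 probe sets measured the same RNA samples and are not independent of each other, and all 6 had a higher mean in lithium under each scaling as well.

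Averaging the log2 values of a gene's probe sets changed the call for Gsk3b. The geometric mean of its 6 probe sets was 136, 143, 142 and 138 in lithium arrays 1 to 4, against 86.6, 100.8, 112 and 91.2 in control arrays 1 to 4, and the groups did not overlap. The log2 fold change was 0.53 (standard error 0.090, 95% interval 0.31 to 0.74, adjusted p = 0.0276 from limma over 18193 gene means). By this measure 4.33% of all genes passed, and of the 7 genes only Gsk3b did. The dim probe sets carried much of it, as without the 2 Gsk3b probe sets of a mean signal under 50 the log2 fold change was 0.37 and the adjusted p was 0.217. The adjusted p of this mean was 0.0241 after quantile normalization, 0.0329 after median centring, 0.0187 with 16 added to each signal and 0.0220 with a term for arrays 1 and 2 against 3 and 4. With array number as a blocking factor it came to 0.0567, and it lay between 0.0369 and 0.0762 when 1 array was left out, under 0.05 only without control array 3.

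**Figure D2:**
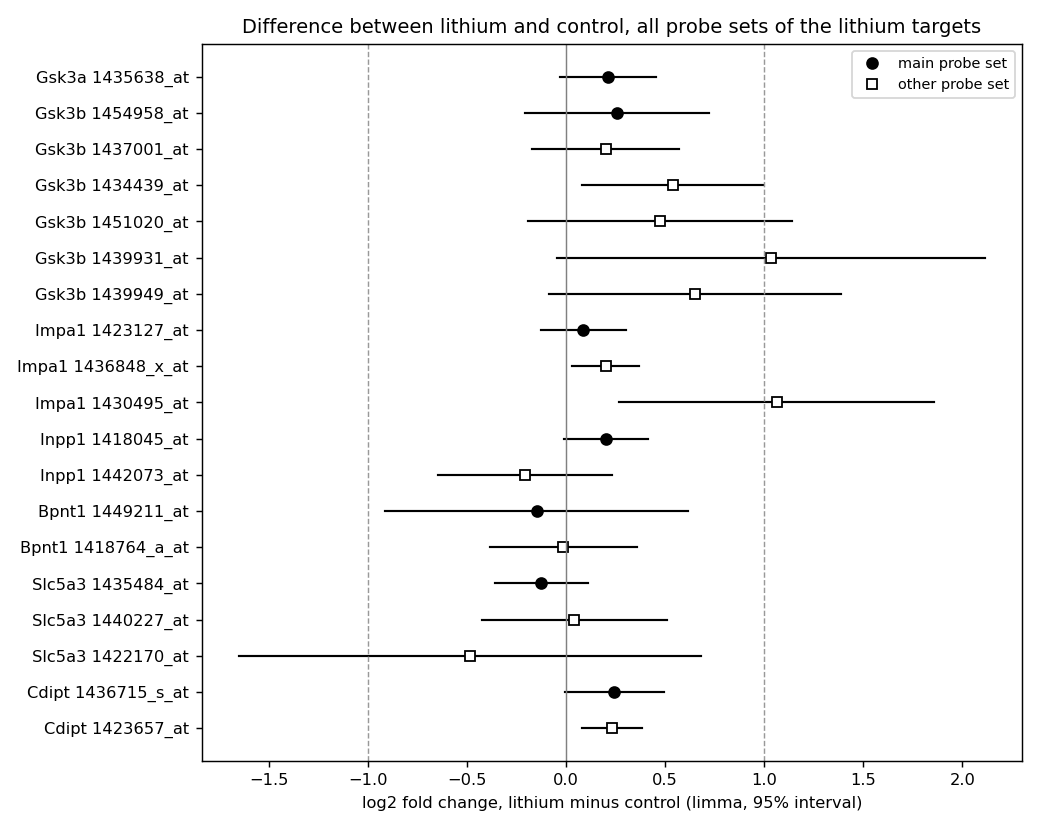
Log2 fold change, lithium minus control, of all 19 probe sets with limma's 95% interval (filled circles for main probe sets, open squares for others, dashed lines at a 2-fold change in either direction, n = 4 arrays each). The intervals of all 7 main probe sets, and of 14 of all 19, lie between the dashed lines. Of the 6 Gsk3b probe sets, all points lie above 0 and only 3 intervals lie between the dashed lines.

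Impa1 encodes inositol monophosphatase, the enzyme that releases free inositol in the last step of recycling and the classical lithium-sensitive phosphatase. Its main probe set, 1423127_at, gave 552, 686, 608 and 663 in lithium arrays 1 to 4, against 589, 631, 538 and 602 in control arrays 1 to 4. The groups overlapped over most of their range, and lithium array 1 was below every control array but 1. The mean was 627 ± 60.0 in lithium and 590.0 ± 39.1 in control (SD, n = 4 each), with a log2 fold change of 0.085 and an interval of -0.13 to 0.30 (adjusted p = 0.697 from limma). With this probe set the interval reached from 0.914 to 1.23 times the control level.

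The Impa1 probe set 1436848_x_at, whose suffix marks probes that may bind related sequences too, gave a signal of 578, 568, 509 and 573 in lithium and 504, 512, 449.8 and 475 in control. Lithium array 3 was the lowest of its group and lay under control array 2, while the other lithium arrays were above all controls. The log2 fold change was 0.20 (95% interval 0.030 to 0.37, adjusted p = 0.207 from limma), and its interval reached from 1.02 to 1.29 times the control level. The third, 1430495_at, was at 1.26 to 3.18 in lithium and at 0.223 to 1.64 in control, below the poly-A controls of the same array on all 8 arrays, so that no fold is given for it. The mean of the 3 probe sets, which includes 1430495_at, gave a log2 fold change of 0.45 (adjusted p = 0.0893 from limma).

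Inpp1 encodes inositol polyphosphate 1-phosphatase, which acts a step before Impa1. Its main probe set, 1418045_at, gave a signal of 53.6, 60.0, 50.8 and 51.2 in lithium arrays 1 to 4, against 48.9, 44.9, 51.6 and 42.2 in control arrays 1 to 4. Control array 3 exceeded lithium arrays 3 and 4, and the log2 fold change was 0.20 (standard error 0.090, 95% interval -0.012 to 0.42, adjusted p = 0.307 from limma). The other probe set, 1442073_at, had a lower mean in lithium, with 7.95 to 10.5 in lithium and 7.71 to 12.8 in control (log2 fold change -0.21, adjusted p = 0.647). The mean of the 2 probe sets differed between the groups by -0.0042 on the log2 scale, so that the direction of Inpp1 depended on the probe set.

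Bpnt1 encodes a phosphatase that clears 3′-phosphoadenosine 5′-phosphate, a by-product of sulphation, and is inhibited by lithium as well. Its main probe set, 1449211_at, varied more between the arrays of a group than between the groups. The signal was 719.9, 638, 452 and 309 in lithium arrays 1 to 4, against 662, 733, 521 and 385 in control arrays 1 to 4. In both groups arrays 1 and 2 were high and arrays 3 and 4 were low. The difference of arrays 3 and 4 from arrays 1 and 2 was -0.86 in lithium and -0.64 in control on the log2 scale, whereas lithium minus control was -0.15 (standard error 0.32, 95% interval -0.91 to 0.61, adjusted p = 0.874 from limma).

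With a term for arrays 1 and 2 against arrays 3 and 4, the interval for Bpnt1 was -0.55 to 0.25 (adjusted p = 0.651 from limma). Neither the labels nor the methods name a batch that holds these arrays. The second Bpnt1 probe set, 1418764_a_at, did not share the pattern, with 73.7, 52.6, 55.5 and 57.5 in lithium and 55.3, 49.1, 69.1 and 68.8 in control (log2 fold change -0.015, 95% interval -0.39 to 0.36).

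The same division of arrays appeared in Gsk3b, where it ran in opposite ways in different probe sets. Arrays 3 and 4 were below arrays 1 and 2 by -0.46 in lithium and -0.36 in control with the main probe set, and by -0.80 in lithium and -0.54 in control with 1451020_at. They were above them by 0.72 in lithium and 1.07 in control with the dim 1439931_at, all on the log2 scale. With 1434439_at the corresponding differences were 0.041 in lithium and 0.029 in control. For the other main probe sets the difference lay between -0.26 and 0.21 in lithium and between -0.099 and 0.18 in control. Within arrays 1 and 2 and within arrays 3 and 4, lithium minus control was 0.31 and 0.21 for the main probe set of Gsk3b and 0.20 and 0.22 for Gsk3a.

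**Figure D3:**
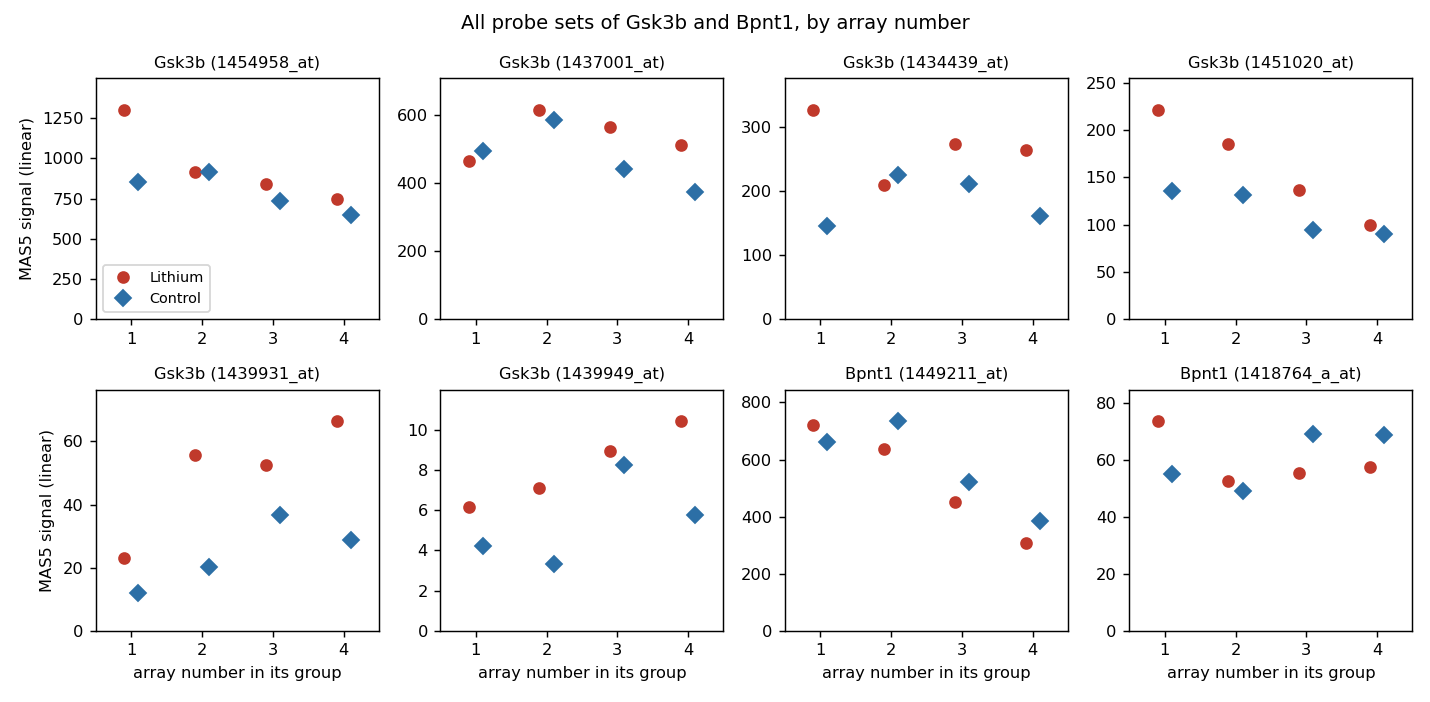
MAS5 signal (linear, from 0) of the 6 Gsk3b and the 2 Bpnt1 probe sets by array number, lithium arrays as circles and control arrays as diamonds. Arrays 3 and 4 lie low in both groups for Bpnt1 1449211_at and Gsk3b 1451020_at, and control lies low on arrays 1 and 2 for Gsk3b 1439931_at.

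Slc5a3 encodes the sodium-coupled transporter that brings myo-inositol into cells and is known for its induction by hypertonic medium. Its main probe set, 1435484_at, gave a signal of 518, 588, 431 and 508 in lithium arrays 1 to 4, against 568, 569, 527 and 555 in control arrays 1 to 4. Control values were close together, whereas lithium values reached from below to above them. The means were 511 ± 64.4 in lithium and 555 ± 19.6 in control (SD, n = 4 each), a log2 fold change of -0.13 (standard error 0.099, 95% interval -0.36 to 0.11, adjusted p = 0.592 from limma). At its upper limit this interval allowed 1.08 times the control level. The probe set 1440227_at ranged from 41.0 to 71.3 in lithium and from 41.6 to 60.5 in control (log2 fold change 0.042, adjusted p = 0.969), and the dim 1422170_at from 4.58 to 23.0 in lithium and from 9.86 to 19.4 in control (log2 fold change -0.49, 95% interval -1.65 to 0.68).

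Cdipt joins inositol to a lipid carrier and so makes phosphatidylinositol. Its main probe set, 1436715_s_at, whose probes may be shared with other transcripts, gave a signal of 825, 707, 701 and 583 in lithium arrays 1 to 4, against 598, 602, 592 and 570.2 in control arrays 1 to 4. Lithium array 4 lay within the control range and the other 3 lay above it (log2 fold change 0.24, standard error 0.11, 95% interval -0.0078 to 0.49, adjusted p = 0.293 from limma). The interval was 0.015 to 0.47 with the term for arrays 1 and 2 against 3 and 4 (adjusted p = 0.193 from limma). It was -0.012 to 0.50 under the block (adjusted p = 0.250 from limma). The second probe set, 1423657_at, gave 384, 356, 372 and 407 in lithium and 303, 324, 335 and 331 in control. Here every lithium array was above every control array, which held for 1 of the 19 probe sets and for 5.52% of all probe sets.

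For Cdipt 1423657_at the means were 379.8 ± 21.1 in lithium and 323 ± 14.2 in control (SD, n = 4 each), which is 1.17 times the control level with an interval of 1.06 to 1.31. The log2 fold change of 0.23 (standard error 0.065, 95% interval 0.078 to 0.38) had the lowest adjusted p of all 19 probe sets (0.122 from limma). None of the 19 probe sets passed under any alternative of the fit, in which the lowest adjusted p among them was between 0.0572 and 0.241.

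Among the 7 genes, Cdipt and Inpp1 had the lowest adjusted p with their main probe sets. The genes whose log2 profile over the 8 arrays was most like that of Cdipt were Puf60, a splicing factor, Laptm4b, a lysosomal membrane protein, and Cdr2l. Their root mean square differences from Cdipt, after centring each gene, were 0.041, 0.047 and 0.048 on the log2 scale, while the SD of Cdipt itself over the 8 arrays was 0.19. For Inpp1 they were Klc1, a kinesin light chain, Hnrnpll, a splicing regulator, and Zfp148, a zinc-finger protein, at 0.062, 0.073 and 0.074, with an SD of 0.15 for Inpp1. In each case 3 genes were taken from 5060 or 5061 genes with a mean signal of at least 200, by likeness alone. Inpp1 itself lay below that level, with a mean of 53.9 in lithium and 46.9 in control. None of the 6 passed the test between the groups (adjusted p = 0.183 to adjusted p = 0.668 from limma). As they were chosen for likeness to genes that did not pass, this result was largely set by the choice.

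Around these genes, 136 of 142 listed genes of the same pathways were measured. In lithium 3 rose and 1 fell (limma, adjusted p under 0.05), against 1.18% higher and 2.05% lower over all genes. Blocking on array number left none of these 4 past the threshold, and 0.275% of all probe sets past it. When 1 array was left out, 0 or 1 gene of these lists passed.

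Eif2b5, the catalytic subunit of the guanine nucleotide exchange factor for translation initiation and a textbook substrate of GSK3, rose in lithium. Its signal was 315, 291, 272 and 321 in lithium arrays 1 to 4, against 214, 211, 201 and 227 in control arrays 1 to 4, so that every lithium array was above every control array. The log2 fold change was 0.49 (standard error 0.075, 95% interval 0.31 to 0.67, adjusted p = 0.0315 from limma), and the adjusted p was 0.0648 under the block and 0.164 after median centring. Its second probe set was near background, at 2.15 to 3.28 in lithium and 0.907 to 2.38 in control. No other of the 24 GSK3 substrates passed in the main fit, and the median log2 fold change of the list was -0.050. Under some alternatives substrates passed as lower. There was 1 after quantile normalization, after median centring, with 16 added and with a robust variance with a trend. There were 2 with the term for arrays 1 and 2 against 3 and 4, and 2 with the mean of the probe sets of a gene.

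Pip4k2c, a kinase that makes phosphatidylinositol 4,5-bisphosphate from phosphatidylinositol 5-phosphate, also rose. The signal was 290.4, 232, 271 and 269 in lithium arrays 1 to 4, against 184, 187, 196 and 207 in control arrays 1 to 4, without overlap (log2 fold change 0.45, 95% interval 0.25 to 0.66, adjusted p = 0.0484 from limma, and adjusted p = 0.1002 under the block). Its second probe set was likewise without overlap, at 40.1 to 51.9 in lithium and 29.7 to 38.1 in control (log2 fold change 0.43, adjusted p = 0.124). Pip5k1b, which makes the same lipid from phosphatidylinositol 4-phosphate, rose at a low level, with 13.6, 13.3, 7.23 and 7.52 in lithium and 4.55, 3.89, 3.16 and 2.97 in control. Control array 1 was below the poly-A controls, and the log2 fold change was 1.47 (adjusted p = 0.0468 from limma), or 0.42 and adjusted p = 0.0572 with 16 added to each signal. The probes of this set, 1450389_s_at, may be shared with other transcripts. With 1421833_at the log2 fold change was 1.26 (adjusted p = 0.169 from limma), and with 1421834_at, where the groups overlapped, 0.61 (adjusted p = 0.521). In both, some arrays lay below the poly-A controls. The list of phosphoinositide synthesis and phospholipase C genes held 33 measured genes, with a median of 0.025.

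Ip6k2, which adds a pyrophosphate to inositol hexakisphosphate, fell in lithium. With 1428373_at the signal was 149, 127, 187 and 153 in lithium arrays 1 to 4, against 279, 234, 357 and 365 in control arrays 1 to 4. The highest lithium value lay below the lowest control value, and the log2 fold change was -0.99 (standard error 0.18, 95% interval -1.43 to -0.56, adjusted p = 0.0462 from limma, and adjusted p = 0.0575 under the block). The other Ip6k2 probe set, 1435319_at, went the other way, at 48.3 to 113 in lithium and 51.5 to 66.5 in control (log2 fold change 0.26, adjusted p = 0.719). With the mean of both probe sets the log2 fold change was -0.37 (adjusted p = 0.166). Of the 29 inositol phosphatases and kinases only Ip6k2 passed, and their median was 0.11. An unadjusted p under 0.05 from limma was found for 7 of them, against 22.0% of all genes. With the term for arrays 1 and 2 against 3 and 4, 2 of the list passed as higher and 1 as lower.

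**Figure D4:**
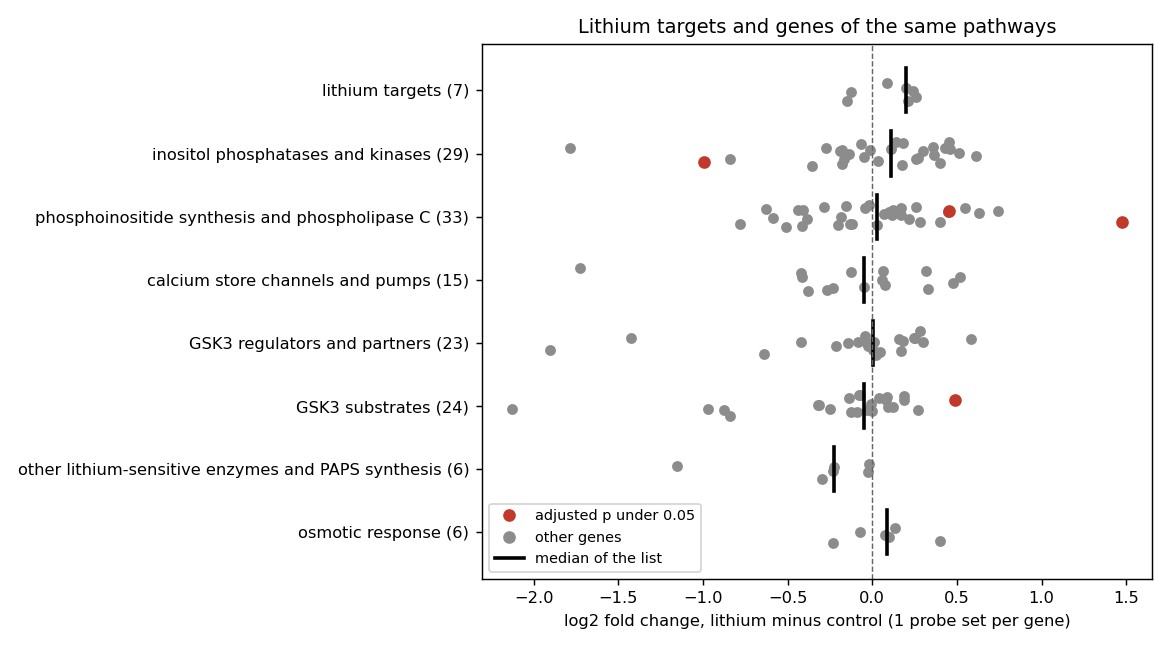
Log2 fold change, lithium minus control, of the 7 lithium targets and of each measured gene in 7 lists of the same pathways (1 probe set per gene, the number of genes in brackets), where black bars mark list medians and a dashed line stands at the median of all genes. The 4 genes past an adjusted p of 0.05 are Ip6k2 on the lower side and Eif2b5, Pip4k2c and Pip5k1b on the higher side, and none is among the 7 targets.

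In the main fit no gene passed in the other 4 lists. An unadjusted p under 0.05 from limma was found for 6 of 23 GSK3 regulators and partners and 2 of 15 calcium store channels and pumps. It was found for 3 of 6 other lithium-sensitive or PAPS-synthesizing enzymes and 1 of 6 osmotic response genes, against 22.0% of all genes. The median log2 fold changes of these lists were 0.0028, -0.047, -0.23 and 0.086. Among the enzymes 1 gene passed as lower after quantile normalization, after median centring, with 16 added, with a robust variance with a trend and with the array-half term. Those settings called 2.49% to 6.29% of all probe sets. Among the GSK3 regulators 1 passed as higher after quantile normalization and with probe set means. The following were chosen after their values were seen. Ctnnb1, which encodes β-catenin, had a mean signal of 1404 in lithium and 1420 in control (log2 fold change -0.026, 95% interval -0.30 to 0.25). Akt1, a kinase that inhibits GSK3, had 275 in lithium and 281 in control (95% interval -0.24 to 0.17). Apc, a scaffold that GSK3 works on, had 459 in lithium and 458 in control (95% interval -0.17 to 0.18). Of the same list, Ppp2ca, the catalytic subunit of protein phosphatase PP2A, had 1147, 1001, 965 and 970.4 in lithium arrays 1 to 4, against 845, 844, 817 and 844 in control arrays 1 to 4, without overlap (log2 fold change 0.28, adjusted p = 0.0961 from limma). Frat1 and Frat2, which bind GSK3 and inhibit it, were dim. Frat1 was at 0.397 to 3.82 in lithium and 2.11 to 10.7 in control (log2 fold change -1.90, adjusted p = 0.189), and Frat2 at 2.82 to 10.5 in lithium and 7.82 to 17.3 in control (log2 fold change -1.42, adjusted p = 0.178). With Frat1, 3 lithium arrays and 1 control array lay below the poly-A controls, and with Frat2, 2 lithium arrays did.

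Further genes, also chosen after their values were seen, did not pass in the main fit either. Papss2, which makes the sulphate donor whose by-product Bpnt1 clears, had a signal of 24.3, 31.3, 36.6 and 44.8 in lithium arrays 1 to 4, against 75.4, 55.9, 75.3 and 95.8 in control arrays 1 to 4. The groups did not overlap in this probe set, as in 15.4% of all genes with the main probe set, and the log2 fold change was -1.15 (adjusted p = 0.0586 from limma). They did not overlap in 2 of its other 3 probe sets either. In 1 of these, 1421987_at, 3 lithium arrays lay below the poly-A controls. Snai1, a transcription factor that GSK3 marks for degradation, had 8.61, 9.96, 22.7 and 27.4 in lithium and 64.7, 45.6, 76.4 and 85.8 in control (log2 fold change -2.13, adjusted p = 0.0602). Slc2a13, the proton-coupled myo-inositol transporter, had a mean of 12.6 ± 7.53 in lithium and 38.0 ± 5.95 in control (SD, n = 4 each), a log2 fold change of -1.78 (adjusted p = 0.0913 from limma). Nfat5, the transcription factor of the hypertonic response, had 316 ± 48.8 in lithium and 297 ± 12.3 in control (log2 fold change 0.077, 95% interval -0.20 to 0.35).

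The nerve is a mixture of cells, and fewer cells of a type and less RNA per cell cannot be told apart. Astrocyte markers summed to 4143 to 5358 in lithium and 5283 to 5871 in control over all 8 genes, and oligodendrocyte markers to 10139 to 13228 in lithium and 10154 to 10880 in control over 7 genes. Markers of fibroblasts summed to 723 to 1979 in lithium and 2963 to 4804 in control over all 5 genes, those of endothelial cells to 144 to 319 in lithium and 389 to 622 in control over all 6, and those of pericytes and smooth muscle to 125 to 151 in lithium and 236 to 749 in control over all 5. Markers of oligodendrocyte precursors summed to 173 to 434 in lithium and 547 to 746 in control over all 4, and those of neurons, whose cell bodies lie outside the nerve, to 112 to 194 in lithium and 126 to 216 in control over all 6. Microglial markers summed to 773 to 1097 in lithium and 969 to 1361 in control over all 7, and photoreceptor markers to 16.5 to 27.7 in lithium and 13.3 to 26.3 in control over 3. A sum leans on its brightest genes. Of the endothelial markers, Flt1 had a mean of 89.6 in lithium and 303 in control, and Cdh5 and Kdr were lower too. Pecam1, Cldn5 and Tek had log2 fold changes of 0.10, -0.28 and -0.22. Of the precursor markers, Pdgfra had 208 in lithium and 527 in control. Gpr17 and C1ql1 were lower, and Cspg4 had a log2 fold change of 0.10. Of 6 neuron markers, 4 had lower means, while Nefm rose (log2 fold change 1.43, limma adjusted p = 0.0374). Nefm was at a low level, 9.52 to 18.1 in lithium and 3.83 to 6.20 in control. The other markers that passed were all lower in lithium (limma): Col3a1 (adjusted p = 0.0321), Lum (adjusted p = 0.0469), Kdr (adjusted p = 0.0321) and Pdgfrb (adjusted p = 0.0401). No marker was at or under the floor of 1 on all arrays, and the part of these cell types in the values above was not tested.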

How the data were processed

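RNA of 8 cultured optic nerve samples (4 lithium, 4 control) was hybridised to Affymetrix mouse genome arrays. The authors obtained the deposited intensities with the MAS5 algorithm in Agilent GeneSpring, scaled to a mean of 100 on each array after trimming 2% at either end. The baseline transformation named in the methods was not seen in the values. Of 45101 probe sets, 64 Affymetrix controls were left out. Genes were named from the platform annotation, in which 34958 probe sets have 1 symbol, 932 several and 9211 none. Signals below 1 (14.5% of the values) were set to 1 before log2. The comparison of lithium with control used limma 3.58.1 (lmFit and eBayes in R 4.3.3) with no blocking factor, with adjustment over 45037 probe sets. It was run on simulated data with independent noise for each probe set and array. Those data lacked the shared deviations between arrays given below, so the run cannot tell how the fit deals with them.

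The members and lists were chosen with earlier results of these data known. All members are named, with up to 2 rising and 2 falling genes past the threshold in each list, and other names are marked as chosen after their values were seen. The list symbol Impad1 was found as Bpnt2. Alternatives were quantile normalization, median centring, log2 of the signal plus 16, a level of 200 before the test, array weights, a robust variance with a trend, array number as a block, a term for arrays 1 and 2 against 3 and 4, other choices of probe set and each array left out. After the data were seen, the scalings, the block, the term and each array left out were also run on the mean of the Gsk3b probe sets, as was leaving out its 2 dimmest. Same-numbered lithium and control arrays deviated together from the means of their groups in each of the 4 pairs. Their correlation was 0.130 to 0.197 across probe sets, against a limit of 0.1. Array number was taken as a block from the data alone, in an alternative only, and the main fit did not pair the arrays. Other numbers within arrays 1 and 2 or within 3 and 4 correlated at 0.071 to 0.131, and numbers across them at -0.181 to -0.066. Lithium array 1 with control array 2, and lithium array 4 with control array 3, reached 0.131, above the 0.130 of the same-numbered arrays 3. Pairing by number was thus not fully set apart from the division of arrays 1 and 2 against 3 and 4. Plots used Python 3.11.15 and matplotlib 3.10.9. The number of arrays limits the precision, and detection calls were not used here.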

Additional observations from a re-analysis of the deposited data

Results flagged for a closer look

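Among 50 groups of 4 values, from the 19 member probe sets, the 4 called genes of the same pathways and the 3′ to 5′ differences of Gapdh and Actb, 2 held an array far from the other 3. Chance alone would flag about 1 in 20 groups. For Impa1 1436848_x_at, lithium array 3 had a signal of 509, against 568 to 578 on the other lithium arrays. For Impa1 1430495_at, control array 2 had a signal of 1.64, against 0.223 to 0.735 on the other control arrays, which the floor set to 1, and all of these lay below the poly-A controls.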

How the results depend on the processing

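With 1 probe set per gene, none of the 7 genes passed under any alternative, nor did any of their 19 probe sets, while averaging the probe sets of each gene gave 1 gene, Gsk3b. The log2 fold change of Bpnt1 was -0.33 to 0.085 without an array, above 0 only without lithium array 4, and that of Inpp1 was -0.0042 with the mean of its probe sets. Without an array, the main probe set of Gsk3b gave 0.096 (lithium array 1 left out) to 0.36, that of Gsk3a 0.13 (lithium array 4) to 0.26, that of Impa1 0.041 (lithium array 2, and likewise control array 3) to 0.15 (lithium array 1), and that of Slc5a3 -0.20 (lithium array 2) to -0.047 (lithium array 3). The count of all probe sets past the threshold, 1050, was 1735 with 16 added, 685 at a level of 200, 124 with the replicate number as a block, 2834 with a term that separates arrays 1 and 2 from the rest, and 169 to 617 when 1 array was left out. The 4 genes of the same pathways became 8 after quantile normalization, 8 with 16 added, 13 with the array-half term just named and 0 with the replicate block (limma, where 9597 of all probe sets had an unadjusted p under 0.05), and 0 to 1 without an array. The block changed no call of the 7 genes with their main probe sets and ended that of the Gsk3b mean (adjusted p = 0.0567 from limma). For RNA quality, the 3′ probe set minus the 5′ probe set of Gapdh was higher by 0.058 in lithium, on the log2 scale (two-sided exact permutation test, p = 0.171), 0.037 after quantile normalization (exact p = 0.0286, the smallest the design allows) and 0.025 to 0.085 without an array. For Actb it was -0.022 (exact p = 0.657) and -0.063 to 0.014 without an array. Signals under about 5 lie in the range of the poly-A controls, and there the floor and the pseudocount set the size of a fold.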
